A study of Mus musculus with 4 samples.

Results

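The multidrug efflux transporters of mouse dendritic cells were taken as a fixed list of 8 genes, the multidrug resistance-associated proteins (MRPs) Abcc1 to Abcc5, the P-glycoproteins Abcb1a and Abcb1b, and the breast cancer resistance protein Abcg2. All 8 were found among the 22180 genes that had a probe set annotated with exactly 1 symbol, and each was represented by 1 probe set. The cells were dendritic cells grown from bone marrow of C57BL/6 mice and harvested on day 7 of culture. They were held for 2 h with 0.3 µM sulforaphane in DMSO (2 arrays) or with DMSO alone (2 arrays), and every sample was then stimulated for 1 h with LPS of E. coli at 100 ng/ml. No sample without LPS was analysed here, and the labels do not say whether replicates came from separate mice or cultures, so the p-values cover the spread of these samples alone, and that spread may be technical.

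ABC transporters are membrane pumps that spend ATP to move molecules across membranes. MRPs export organic anions, among them conjugates of drugs and electrophiles with glutathione, glucuronate or sulfate, whereas P-glycoprotein and Abcg2 export mainly hydrophobic or amphipathic drugs. Several MRP genes are known targets of NRF2, the transcription factor that isothiocyanates such as sulforaphane activate by modifying its inhibitor KEAP1, and sulforaphane itself is conjugated to glutathione in cells. In dendritic cells Abcc1 is known for the export of the cysteinyl leukotriene LTC4 and for a part in migration.

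Promoter windows, each running from 250 bases before to 50 bases after an annotated start site, were read from RefSeq (build GRCm38.p6). Of the 8 genes 6 had an entry, with 9 windows in all, and Abcc1 and Abcc3 were not among them. The core of the antioxidant response element, the site bound by NRF2 with a small MAF partner, was searched for as TGACNNNGC on both strands, and CCAAT and GC boxes as CCAAT and GGGCGG. The ARE core was present in 12.4% of all 32851 windows in the table, CCAAT in 37.4% and GGGCGG in 35.7%. Among the transporters, both Abcc4 windows and the windows of Abcc2 and Abcb1a held the ARE core once each, and those of Abcc5, Abcb1b and Abcg2 did not hold these letters. The windows printed here are one of Abcc4 (chr14:118706170-118706469, minus strand), which had the ARE core, and those of the paralogs Abcb1b (chr5:8797897-8798196, plus strand) and Abcb1a (chr5:8566841-8567140, plus strand), of which the first did not overlap between the groups and the second did. Capitals mark the matches to the 3 motifs, on either strand.
Abcc4: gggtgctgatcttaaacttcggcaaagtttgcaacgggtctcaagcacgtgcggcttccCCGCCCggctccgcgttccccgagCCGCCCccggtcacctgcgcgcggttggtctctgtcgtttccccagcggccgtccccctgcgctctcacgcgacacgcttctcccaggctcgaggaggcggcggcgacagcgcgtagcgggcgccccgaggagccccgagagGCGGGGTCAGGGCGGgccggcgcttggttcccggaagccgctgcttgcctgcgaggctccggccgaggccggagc
Abcb1b: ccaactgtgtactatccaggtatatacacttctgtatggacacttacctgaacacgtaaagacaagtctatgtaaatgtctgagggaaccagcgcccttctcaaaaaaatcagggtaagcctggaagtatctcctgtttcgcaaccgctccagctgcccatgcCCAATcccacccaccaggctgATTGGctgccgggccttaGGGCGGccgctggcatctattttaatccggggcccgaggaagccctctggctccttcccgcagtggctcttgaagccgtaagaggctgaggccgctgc
Abcb1a: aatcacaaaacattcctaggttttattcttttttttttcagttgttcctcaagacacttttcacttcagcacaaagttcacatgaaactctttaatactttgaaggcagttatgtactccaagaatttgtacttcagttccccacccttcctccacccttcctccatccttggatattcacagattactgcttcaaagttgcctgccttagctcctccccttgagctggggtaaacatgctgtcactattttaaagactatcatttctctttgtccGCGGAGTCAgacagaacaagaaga

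In the Abcc4 window the ARE core lay on the opposite strand (GCGGGGTCA as written) with its first base at position -25, counted with the start site as 0, and a GC box followed it directly without overlap. In the Abcb1a window it lay after the start site, at position 26 (GCGGAGTCA as written). The Abcb1b window held instead a pair of CCAAT boxes in opposite orientation, at -87 and -66, and a GC box at -48. The match in Abcc2 was TGACATAGC at -98, and that in the second window of Abcc4 (chr14:118676882-118677181, minus strand) was TGACTCTGC at -23. A match is a description of letters and not a measured binding site.

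Values are RMA values on a log2 scale, so that a difference of 1 is a doubling. Medians of the arrays lay between 3.24 and 3.27. DMSO replicate 1 stood apart from the other arrays, with an interquartile range of 3.41 against 3.61 to 3.62 on the others. Some results that rest on it, among them that of Abcb1b, are given with and without it. Differences of single genes other than the transporters are given only with it. The filter kept genes whose mean exceeded 2.91, the 40th percentile over the probe sets. The 14652 genes kept were tested with limma, and their p-values were adjusted after Benjamini and Hochberg, with 0.05 as the threshold. Of the transporters 7 were tested and Abcg2 fell under the filter. In bulk samples fewer cells of a type and less RNA per cell cannot be told apart.

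After sulforaphane, Abcc1 mRNA was 1.33-fold higher, Abcc3 1.2-fold and Abcc4 1.14-fold higher, each without overlap between the arrays of the groups, but none of the 3 passed the adjusted threshold. Abcb1b was also higher without overlap, by 1.51-fold, a size set largely by DMSO replicate 1. Abcc2, Abcc5 and Abcb1a overlapped between the groups. By limma 0 of the 7 tested transporters passed the adjusted threshold, a call made for 0.130% of all genes tested, and 1 of the 7 had an unadjusted p under 0.05, against 13.0% of all genes. Without overlap 4 of 7 were higher and 0 lower, where 24.0% of all genes tested were higher and 19.5% lower. With 2 arrays per group the lowest two-sided p of an exact permutation test is 0.33.

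**Figure D1:**
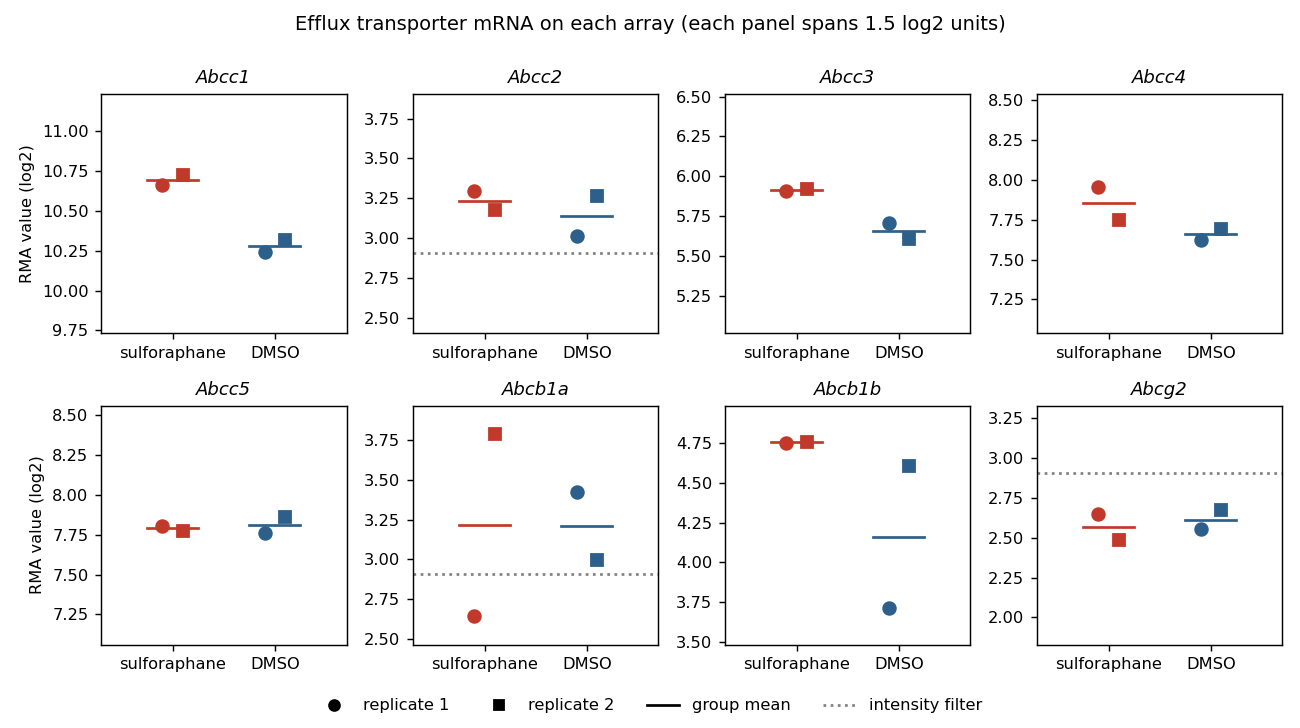
RMA value (log2) of the 8 transporters on each array, with sulforaphane left and DMSO right in each panel; circles are replicate 1, squares replicate 2, short lines group means and the dotted line the intensity filter at 2.91. Abcc1, Abcc3, Abcc4 and Abcb1b are higher on both sulforaphane arrays than on both DMSO arrays, and in Abcb1b the DMSO arrays lie far apart.

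Abcc1 (MRP1) exports glutathione conjugates, oxidised glutathione and LTC4. Its values were 10.66 and 10.72 in sulforaphane-treated cells, against 10.24 and 10.32 in DMSO-treated cells. Both sulforaphane arrays lay above both DMSO arrays, and the replicates of each group lay close together. The smallest difference between a sulforaphane and a DMSO array was 0.34 and the largest 0.48, whereas the replicates differed by 0.061 under sulforaphane and 0.080 under DMSO. The fitted difference was 0.41 ± 0.11 (SE, n = 2 per group; 95% interval 0.15 to 0.68), which corresponds to a fold of 1.11 to 1.60. Its unadjusted p was 0.0086 and its adjusted p 0.205 by limma. It was the transporter with the smallest p, and its difference lay above the 95th percentile of all genes tested, 0.38. Leaving out any single array moved it only between 0.37 and 0.45, with 0.37 when DMSO replicate 1 was left out. With an intensity trend in the variance model, under which 249 genes passed, its adjusted p was 0.0503, the smallest of the alternatives tried. Over all alternatives that p ran up to 0.733.

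Abcc3 (MRP3) exports glucuronide and bile acid conjugates and sits on basolateral membranes in liver and gut. It had 5.91 and 5.92 in sulforaphane-treated cells and 5.71 and 5.61 in DMSO-treated cells. The sulforaphane arrays nearly coincided, and both lay above the DMSO arrays by 0.20 to 0.32. The difference was 0.26 ± 0.11 (95% interval -0.0062 to 0.52), with an unadjusted p of 0.054 and an adjusted p of 0.398 by limma. The interval reaches a fold of 1.44 at its upper end. A second quantile normalization gave 0.18, the lowest value among the alternatives, and leaving out DMSO replicate 1 gave 0.31, the highest.

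Abcc4 (MRP4) exports cyclic nucleotides, prostaglandins and conjugated steroids. Its values were 7.95 and 7.75 in sulforaphane-treated cells, against 7.62 and 7.69 in DMSO-treated cells. The groups did not overlap, but sulforaphane replicate 2 exceeded DMSO replicate 2 by only 0.058. The gap between the sulforaphane arrays, 0.20, was about as large as the difference between the groups, 0.19 ± 0.12 (95% interval -0.10 to 0.49, adjusted p = 0.572 by limma). Without sulforaphane replicate 1 the difference was 0.094 and without sulforaphane replicate 2 it was 0.30.

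Abcc5 (MRP5) exports cyclic nucleotides, chiefly cGMP, and nucleotide analogs. Sulforaphane-treated cells had 7.81 and 7.78 and DMSO-treated cells 7.76 and 7.86. Both sulforaphane arrays lay between the DMSO arrays. The difference was -0.020 ± 0.11 (95% interval -0.29 to 0.25, adjusted p = 0.969 by limma), so the data leave room for folds between 0.820 and 1.19. Its sign turned with median centring of the arrays (0.00069) and without DMSO replicate 2 (0.033). Whether its difference departs from that of Abcc1 was not tested.

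Abcc2 (MRP2) is the apical export pump of conjugates in hepatocytes. It was dim here, with 3.29 and 3.18 in sulforaphane-treated cells and 3.01 and 3.27 in DMSO-treated cells, a mean only 0.28 above the filter. The groups overlapped. The difference was 0.097 ± 0.13 (95% interval -0.23 to 0.42, adjusted p = 0.829 by limma), and it was -0.031 without DMSO replicate 1 and 0.22 without DMSO replicate 2. No difference was detectable at this signal.

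**Figure D2:**
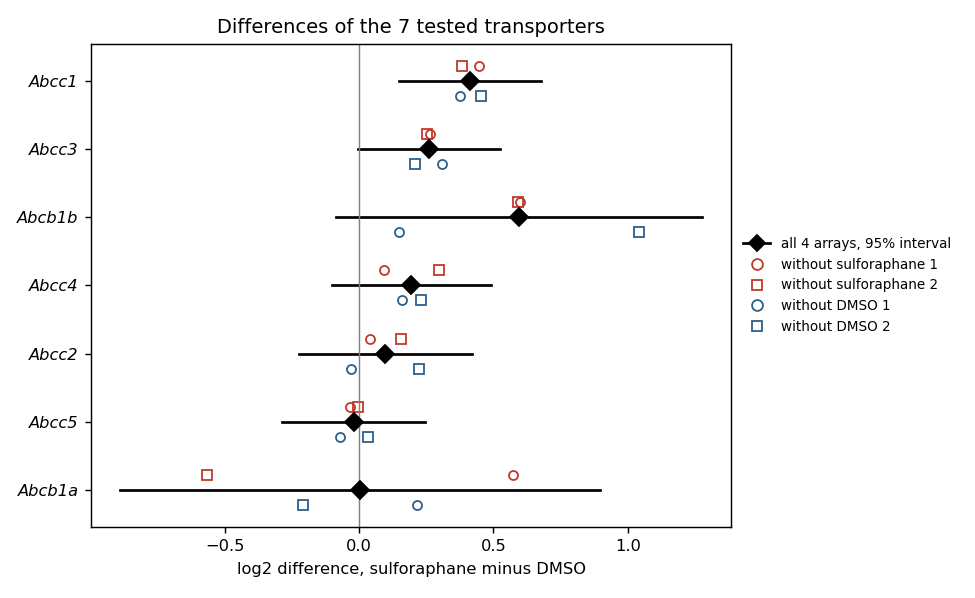
Log2 difference (sulforaphane minus DMSO) of the 7 tested transporters, ordered by p from the smallest at the top; diamonds and bars are the limma estimate and its 95% interval from all 4 arrays, and open symbols the estimate without 1 array. Abcc1 keeps values between 0.37 and 0.45, whereas Abcb1b runs from 0.15 to 1.04 and Abcb1a from -0.57 to 0.57.

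Rodents carry a pair of drug-transporting P-glycoprotein genes, Abcb1a and Abcb1b, where humans have ABCB1. In the RefSeq gene order Abcb1b lies next to Abcb1a on its one side and next to Abcb4, the phosphatidylcholine translocator of bile, on the other. The probe sequences were not analysed here, so signal shared between these related genes was not tested.

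Abcb1b had 4.75 and 4.76 in sulforaphane-treated cells, against 3.71 and 4.61 in DMSO-treated cells. The sulforaphane arrays differed by 0.0057, whereas the DMSO arrays differed by 0.90, a gap that only 0.587% of all genes tested reached between those arrays. DMSO replicate 2 lay just 0.14 below the lower sulforaphane array and DMSO replicate 1 lay 1.05 below the higher one. The difference was 0.59 ± 0.28 (95% interval -0.086 to 1.28, adjusted p = 0.447 by limma), a fold of 0.942 to 2.42. It was 0.15 without DMSO replicate 1 (adjusted p = 0.732) and 1.04 without DMSO replicate 2 (adjusted p = 0.0863), and over all alternatives the adjusted p ran from 0.0863 to 0.835. Abcb1b was the single transporter that reached 1.5-fold without overlap, a size passed upwards by 1.32% of all genes tested. It no longer reached that size without DMSO replicate 1, nor after a second quantile normalization, where it missed it narrowly (0.576 against a limit of 0.585 on the log2 scale).

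Abcb1a had 2.65 and 3.79 in sulforaphane-treated cells and 3.42 and 2.999 in DMSO-treated cells. Both DMSO arrays lay between the sulforaphane arrays, whose gap of 1.14 was reached by 0.0546% of all genes tested. Sulforaphane replicate 1 lay under the filter value, and the mean over the arrays 0.31 above it. The difference was 0.0043 ± 0.37 (95% interval -0.89 to 0.90, adjusted p = 0.999 by limma), so neither a fold of 0.540 nor one of 1.86 lies outside the interval. It was 0.57 without sulforaphane replicate 1 and -0.57 without sulforaphane replicate 2.

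The neighbouring Abcb4 had 2.50 and 2.65 in sulforaphane-treated cells and 2.52 and 2.51 in DMSO-treated cells, under the filter. Among the 3 neighbouring genes, Abcb1b therefore was the only one whose arrays were all above the filter value.

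**Figure D3:**
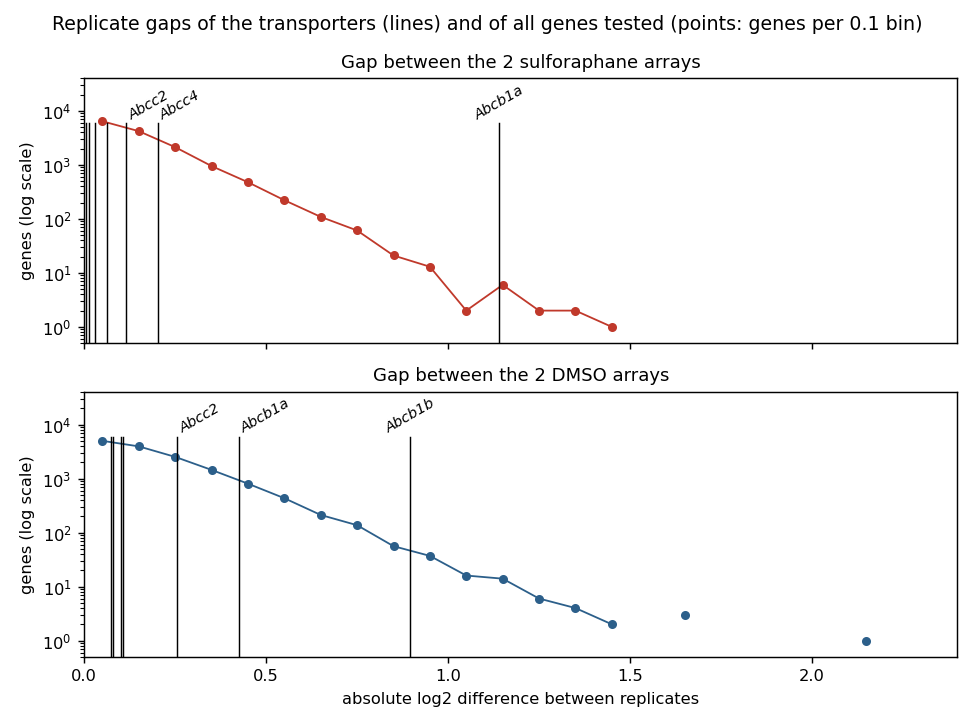
Number of genes tested (log scale) by the absolute log2 difference between replicates, in bins of 0.1, for the sulforaphane arrays (top) and the DMSO arrays (bottom); vertical lines mark the 7 tested transporters, with names for the 3 widest gaps. Abcb1a lies far out under sulforaphane (1.14) and Abcb1b under DMSO (0.90).

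Abcg2, which exports urate, porphyrins and drugs and marks stem-like side population cells, had 2.65 and 2.49 in sulforaphane-treated cells and 2.55 and 2.67 in DMSO-treated cells. The groups overlapped, and each array lay under the filter value. It was not tested, and its plain difference of means was -0.044. With no filter the fit gave an adjusted p of 0.948 by limma. The signal of Abcg2 lay in the low-intensity range of these arrays.

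Over all 8 genes 6 plain differences lay above 0 and 2 below, with a median of 0.15. Over the 7 tested the median was 0.19, beside 0.018 for all genes tested, and 6 lay above 0, as did 54.2% of all genes. This median was 0.22 with median centring, 0.16 with a second quantile normalization and 0.16 without DMSO replicate 1. The MRPs spanned much of this range, with 0.41 for Abcc1, 0.19 for Abcc4 and -0.020 for Abcc5.

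Genes whose log2 values followed Abcc1 most closely over the 4 arrays, after centring each gene on its mean, were Cysltr2 (root mean square distance 0.0093), a G protein-coupled receptor, Dipk2a (0.016) and Fam222a (0.017). With 4 arrays such likeness is common, and 765 genes lay within 0.1 of Abcc1. None of the 3 passed the adjusted threshold by limma, with adjusted p between 0.189 and 0.231.

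The rest of the ABC family was read beside the transporters. Of 31 other ABC genes tested 0 passed the adjusted threshold, and their median was 0.016. At an unadjusted p under 0.05 by limma 7 were higher and 2 lower, where 13.0% of all genes tested had such a p in either direction. The median was 0.16 for other ABCB genes and 0.13 for other ABCC genes, near the 0.19 of the transporters. It was 0.048 for ABCD, ABCE and ABCF genes, -0.088 for ABCA genes and -0.17 for other ABCG genes. Among other ABCC genes, Abcc10 (MRP7), whose human protein exports drugs, had 4.98 and 5.31 in sulforaphane-treated cells against 4.44 and 4.81 in DMSO-treated cells (0.52), while Abcc12 differed by 0.30, Abcc6 by -0.15 and Abcc9 by 0.13. Among other ABCB genes, Abcb6, linked to porphyrin transport, differed by 0.50, the lysosomal peptide transporter Abcb9 by 0.39, the mitochondrial Abcb8 by 0.31 and the antigen peptide transporter Tap1 by -0.22. Abcg4, a sterol transporter, had 3.69 and 3.51 in sulforaphane-treated cells against 4.54 and 4.86 in DMSO-treated cells, a difference of -1.10 ± 0.15 with an adjusted p of 0.0581 by limma. Its relatives Abcg1 and Abcg3 differed by 0.17 and -0.17. Of the ABCA genes, Abca1, which loads cholesterol onto apolipoproteins, differed by -0.47, Abca5 by 0.33, Abca7 by -0.17 and Abca8b by 0.32. Of the ABCD, ABCE and ABCF genes, Abcd4 differed by 0.50, Abce1 by -0.15, Abcd3 by 0.16 and Abcf1 by 0.15. Abcc12, Abcc6, Abcc9, Abca5 and Abca8b were dim, with group means from 2.77 to 3.42.

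**Figure D4:**
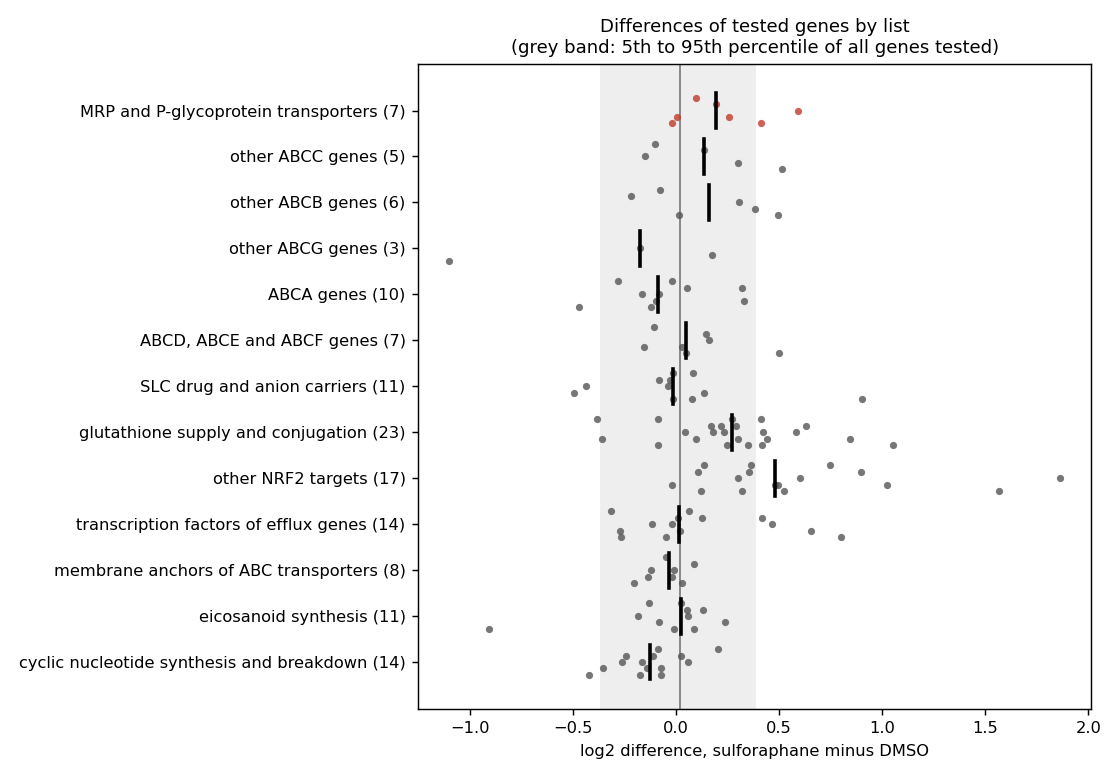
Log2 difference (sulforaphane minus DMSO) of each tested gene in 13 gene lists, with the number tested in brackets; red points are the efflux transporters, black bars list medians, the grey line the median of all genes tested and the grey band their 5th to 95th percentile. The transporters have a median of 0.19, between those of other NRF2 targets (0.48) and of all genes (0.018).

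Genes that supply what the MRPs carry showed the following. Of 23 tested genes of glutathione supply and conjugation 19 lay above 0 (median 0.27) and 0 passed the adjusted threshold. Those with the smallest p were the synthesis enzymes Gss (1.05), Gclc (0.85) and Gclm (0.58) and the transferase Gstm1 (0.63). Of 17 other NRF2 targets 16 lay above 0 (median 0.48), Osgin1 rose (1.57, adjusted p = 0.0322 by limma), and Hmox1 (1.03), Cbr3 (1.87) and Nqo1 (0.90) did not pass. Without DMSO replicate 1 that median was 0.32, with 14 of 17 above 0 and 0 past the threshold. Beside these, Abcc1 differed by 0.41, less than each of the 8 genes just named. Those 8 had the smallest p in their lists, so this order follows in part from how they were picked. Against the lists as a whole, 0.41 lay above the glutathione median of 0.27 and below the 0.48 of other NRF2 targets. The difference between Abcc1 and these genes was not tested. These lists were chosen with earlier results of these data known.

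Of 14 tested transcription factors linked to efflux genes, 0 passed, and their median was 0.017 with 8 above 0, but -0.0031 over the 12 above the 60th percentile, -0.045 after a second quantile normalization and -0.061 with 6 above 0 without DMSO replicate 1. Bach1, which competes with NRF2 for its sites, differed by 0.80, the NRF2 partners Mafg by 0.66 and Mafk by 0.42, and Keap1 by 0.47. The small MAF gene Maff went the other way, lower without overlap (-0.31). Nfe2l2, the gene of NRF2, differed by -0.11 and overlapped between the groups. Among 11 tested carriers of the SLC class, the carnitine and ergothioneine transporter Slc22a4 differed by 0.90, Slco4a1 by -0.49, Slco3a1 by -0.43 and the nucleoside carrier Slc29a1 by -0.083, and 0 passed. Among 8 scaffold and anchor genes, which hold ABC transporters in the membrane, differences were -0.20 for Slc9a3r2, -0.14 for Slc9a3r1, -0.12 for Cav1 and 0.089 for Msn, and 0 passed.

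Genes that make or break down the signalling substrates of Abcc1, Abcc4 and Abcc5 were also counted. In 11 eicosanoid genes Ptgs2, the inducible cyclooxygenase, differed by -0.90, Hpgds by 0.24, Ptges3 by -0.19 and Tbxas1 by 0.13, with 0 past the threshold. In 14 genes of cyclic nucleotide synthesis and breakdown 11 lay below 0 (median -0.13), led by Adcy7 (-0.42), Adcy6 (-0.35), Pde8a (-0.26) and Pde4a (-0.24), with 0 past the threshold. The counts at an unadjusted p under 0.05 were 1 lower among the eicosanoid genes and 1 lower among the cyclic nucleotide genes.

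Markers of the cell types that such cultures can hold were read on the same arrays. The dendritic cell marker Itgax was at 11.33 and 11.32 in sulforaphane-treated cells and 11.26 and 11.26 in DMSO-treated cells. Of 12 tested dendritic cell markers 6 lay above 0 and 6 below (median -0.0997), with 2 higher and 6 lower without overlap. Among all genes tested, 24.0% were higher and 19.5% lower without overlap. The sign of the marker median depended on the probe set choice. Averaging each gene's probe sets gave 0.024, with 7 of 12 above 0. Treating probe sets singly gave 0.011, with 7 of 13 above 0. Under the other alternatives the median stayed below 0. At an unadjusted p under 0.05, 5 of the 12 markers were lower, Irf4 (-0.87), Batf3 (-0.64), Ciita (-0.46), Flt3 (-0.42) and Zbtb46 (-0.34). Their mean log2 level did not overlap, with 8.35 and 8.43 under sulforaphane against 8.52 and 8.64 under DMSO, whereas their summed linear level did, with 11159 to 11421 against 10730 to 11569. Of 12 macrophage and monocyte markers 9 lay below 0, 5 were lower and 0 higher without overlap, and Mertk (-0.39) and Ccr2 (-0.51) were lower at an unadjusted p under 0.05. Their mean log2 level was 9.34 and 9.39 under sulforaphane against 9.43 and 9.52 under DMSO, and their summed linear level 14936 to 15142 against 14748 to 16495. Of 10 mast cell and basophil markers 8 were tested, of which 1 lay above 0 and 7 below, with 4 lower without overlap, and their summed level was 2112 to 2314 under sulforaphane against 2364 to 2381 under DMSO. Of these markers Hdc (-0.61) and Gata2 (-0.57) were lower at an unadjusted p under 0.05. All 5 tested B cell markers lay below 0 (median -0.31). Blk (-0.41), Cd79a (-0.42) and Vpreb3 (-0.31) were lower without overlap and at an unadjusted p under 0.05. These genes were dim. Under sulforaphane Blk had 2.80 and 2.98 and Vpreb3 2.89 and 3.13, on either side of the filter value, and Cd79a had 3.20 and 3.56. At such a signal no fall in B cell transcripts can be read from them. The summed level over all 7 B cell markers measured was 57.2 to 74.1 against 72.9 to 78.0. Of 12 neutrophil markers 9 lay above 0 (median 0.044), with 1 higher and 1 lower without overlap. The lower one was Cebpe (-0.40), which also had an unadjusted p under 0.05. Without DMSO replicate 1 only 2 of the 12 lay above 0 (median -0.020), and without DMSO replicate 2 it was 11. The summed level of the neutrophil markers was 9525 to 10555 against 8973 to 10477. T and NK cell markers, with 2 of 4 tested above 0 and 1 lower without overlap, had a summed level over all 9 measured of 117 to 122 against 119 to 134. Erythroid and megakaryocyte markers (919.6 to 987 against 802 to 958) had 2 of 3 tested above 0 and stromal markers (87.6 to 88.5 against 81.6 to 90.6) 5 of 6, with 1 higher without overlap. The B, T and NK cell markers Ms4a1, Ebf1, Cd3d, Cd3g, Gzma, Klrb1c and Ncr1 were under the filter. No marker passed the adjusted threshold by limma, and the part of cell composition in the transporter values was not tested.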

How the data were processed

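Expression was measured in 4 samples of LPS-stimulated dendritic cells, with cRNA carrying biotin on Affymetrix arrays, per the labels' protocols. The submitters' processing notes name RMA and R 2.15.1 for the deposited values. RMA corrects background, makes the arrays' distributions equal by quantile normalization and combines the probes of a probe set. The deposited table does not state its log base, which was read as log2 from the method and the range of 1.24 to 13.05. Any filter is not given in the sources used here. Of 41345 probe sets 23521 had exactly 1 gene symbol in the platform annotation, 1814 had several and 16010 were not listed. No probe set with several symbols held a transporter, and all 8 transporters matched RefSeq symbols by Entrez identifier.

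Per gene the probe set with the highest mean was kept, genes above the 40th percentile were tested, and sulforaphane minus DMSO was fitted with limma 3.58.1 (lmFit, eBayes) in R 4.3.3 without a block, with 2 residual and 4.02 prior degrees of freedom. Intervals cover 95%. The number of arrays limits the precision. The procedure was tested on simulated arrays. All transporters are named. From each list other than markers up to 4 tested genes with the smallest unadjusted p are named, and 3 genes nearest to the transporter with the smallest p are named. Itgax, the other markers, Abcb4, Maff and Nfe2l2 were named after their values were seen. The members and lists were chosen with earlier results of these data known. Alternatives were the 60th percentile as filter or none, centring of each array on its median over all probe sets, a second quantile normalization, mean or single probe sets, a replicate block, each array left out, and a trend or robust estimation in eBayes.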

Additional observations from a re-analysis of the deposited data

How the results depend on the processing

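The count of transporters past the threshold was 0 under each of the 13 alternatives, each array left out counting as 1. Of 89 transporter differences under them 84 kept their sign and 5 turned. Many of the 84 could not turn, since each transporter had 1 probe set. The filters, the probe set choices, the replicate block and the eBayes settings therefore left its difference as it was. Only median centring, the second quantile normalization and leaving out an array could change it. Abcc5 turned with median centring (0.00069) and without DMSO replicate 2 (0.033). Abcb1a turned without sulforaphane replicate 2 (-0.57) or DMSO replicate 2 (-0.21), and Abcc2 without DMSO replicate 1 (-0.031). With an array left out Abcc2 ran from -0.031 to 0.22, Abcc5 from -0.073 to 0.033 and Abcb1a from -0.57 to 0.57. The cause was not tested. Each turned value belongs to a transporter that overlapped between the groups. For leaving out an array this follows from the definition, since without overlap every remaining sulforaphane array still lies above every DMSO array. The 1 transporter at 1.5-fold without overlap, Abcb1b, became 0 with a second quantile normalization, and with an array left out the count ran from 0 to 1.

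Of all genes, 19 passed, against 138 with the filter at the 60th percentile, 106 with a second quantile normalization, 34 with the mean of probe sets, 249 with an intensity trend and 8 with a replicate block. With the intensity trend 7 of the other NRF2 targets, 3 glutathione genes, 2 transcription factors and 1 gene each of the other ABCG, SLC, eicosanoid and dendritic cell marker lists passed. With the 60th percentile as filter 4 of the other NRF2 targets, 2 glutathione genes and 1 gene of each of the other lists just named passed, and with a second quantile normalization 4 of the other NRF2 targets, 0 glutathione genes and 1 gene of each of the others. With the mean of probe sets 2 of the other NRF2 targets passed. With an array left out 0 passed by limma in each case (0 to 0), while 1036 to 2850 genes had an unadjusted p under 0.05. The lone array of a group is then assumed to vary like the other group. The labels give no pairing, so it is not known whether same-numbered arrays belong together. Their deviations correlated at -0.081, but a single correlation from 2 arrays per group cannot decide this. With the replicate block Abcc1 had an adjusted p of 0.294 and Abcb1b 0.377, and 0 transporters passed. With 2 arrays per group the intervals were widest for Abcb1a (-0.89 to 0.90) and Abcb1b (-0.086 to 1.28), the transporters with the largest gaps between replicates. The interval of the dim gene Abcc2 ran from -0.23 to 0.42, and Abcg2 lay in the low-intensity range.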
